A study of Homo sapiens with 9 samples.

Results

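The mRNAs of 10 genes that supply, salvage or break down uridine were followed in LX-2 cells treated with TGF-β and uridine. The genes were chosen by symbol for their roles. The rule used no measured value, although earlier results of these data were known when it was set. They are UCK1, UCK2 and UCKL1 for salvage, UPP1, CDA, TYMP and DPYD for breakdown and interconversion, and CAD, DHODH and UMPS for de novo synthesis. All 10 are among the 20777 genes of the deposited count table, and all 10 passed the filter on low counts that left 13384 genes to test. LX-2 cells are an immortalised human line made from hepatic stellate cells, the cells that deposit collagen in liver fibrosis. Total RNA was sequenced in 3 groups of 3 libraries: a control group with no treatment in its labels, a TGF-β group and a TGF-β + uridine group, the last 2 at day 1 of treatment. Every library is labelled as LX-2 with an unmodified genotype, so all groups share the line and its culture in serum-containing medium. In the study's methods, cells were activated with TGF-β before the medium was exchanged for medium with uridine. The labels do not say whether the 3 libraries of a group came from separate cultures, and p-values therefore measure only the spread between these libraries, which may be technical. In RNA from whole cultures, fewer cells that express a gene and less of its mRNA per cell cannot be told apart.

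Uridine reaches the pyrimidine nucleotide pool by salvage or by new synthesis. In salvage, nucleoside transporters carry uridine into the cell and uridine-cytidine kinases phosphorylate it to UMP. In new synthesis, CAD, DHODH and UMPS build UMP from bicarbonate, glutamine and aspartate. Uridine phosphorylase splits uridine into uracil and ribose-1-phosphate, and the dihydropyrimidine dehydrogenase step then commits uracil to degradation. The liver is known as a main site of both uridine release into blood and uridine breakdown.

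The libraries were of like depth, at 40539751 to 41467124 counts on genes. The control libraries were the least alike. Their TMM scaling factors ran from 0.820 in control 1 to 1.16 in control 3, against 0.930 to 1.08 in the 6 treated libraries. Normalized CPM below are CPM scaled by these factors. ACTA2, which encodes the activation marker α-SMA, rose after TGF-β from 9.97 ± 3.57 to 29.8 ± 5.11 normalized CPM (mean ± SD, n = 3 each) by 1.58 on the log2 scale, with an edgeR adjusted p of 0.0106 (0.0507 to 0.0673 without control 2, TGF-β 1 or TGF-β 2). Of 23 alternatives, 5 lost this call. COL1A1 and COL3A1 had log2 differences of 0.46 and 1.44 after TGF-β, with adjusted p of 0.0822 (0.00365 without control 1) and 0.0647 (0.0352 without TGF-β + uridine 2). COL1A1 was called under only 5 of 23 alternatives and COL3A1 under only 4 of 21. Of 10 stellate and fibroblast markers, 7 had a mean FPKM of at least 1 in each group, but the collagen gene COL1A2 had at most 1 count in any library and COL3A1 at most 0.454 FPKM. Of 6 hepatocyte markers 3 had values, which summed to at most 0.107 FPKM in any library. Of 4 endothelial markers 3 had values, which summed to at most 0.417 FPKM. ALB, APOB, TTR and KDR had no values, nor did the stellate marker LRAT and the leukocyte marker PTPRC. Among biliary and epithelial markers EPCAM had at most 5 counts and KRT19 at most 1.15 FPKM, whereas KRT7 reached 595 to 1178 FPKM. Among macrophage markers CD68 was at 16.8 to 22.7 FPKM, CD14 had at most 12 counts and CD163 at most 1.

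Promoters are shown for CDA, CAD and UCK1. These were the members whose normalized CPM did not overlap between the TGF-β and the TGF-β + uridine group. That of UPP1 is shown because it encodes uridine phosphorylase, which splits uridine. Each window runs from 250 bases before to 50 bases after the start of the gene in RefSeq on GRCh38.p14, written 5′ to 3′ on the strand of the gene. Capitals mark matches, on either strand, to CACGTG (E-box), TGACGTCA (cAMP response element), TGANTCA (AP-1), GTCTAGAC or CAGACA (SMAD), CCAAT, or GGGCGG (GC box). The windows lie at chr1:20588847-20589146 for CDA (plus strand), chr2:27217119-27217418 for CAD (plus strand), chr9:131531214-131531513 for UCK1 (minus strand) and chr7:48089004-48089303 for UPP1 (plus strand, 1 of 3 windows).
CDA: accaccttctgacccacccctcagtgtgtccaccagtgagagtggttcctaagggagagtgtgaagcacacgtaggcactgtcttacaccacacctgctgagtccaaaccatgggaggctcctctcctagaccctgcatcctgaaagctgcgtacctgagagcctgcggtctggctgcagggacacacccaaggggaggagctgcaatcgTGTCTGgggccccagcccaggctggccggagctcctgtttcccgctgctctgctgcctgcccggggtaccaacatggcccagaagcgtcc
CAD: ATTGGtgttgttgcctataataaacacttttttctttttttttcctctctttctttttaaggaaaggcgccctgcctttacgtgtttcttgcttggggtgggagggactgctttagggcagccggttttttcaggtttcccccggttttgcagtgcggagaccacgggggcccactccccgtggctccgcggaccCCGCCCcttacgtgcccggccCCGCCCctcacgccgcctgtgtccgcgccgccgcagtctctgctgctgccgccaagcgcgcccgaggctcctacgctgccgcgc
UCK1: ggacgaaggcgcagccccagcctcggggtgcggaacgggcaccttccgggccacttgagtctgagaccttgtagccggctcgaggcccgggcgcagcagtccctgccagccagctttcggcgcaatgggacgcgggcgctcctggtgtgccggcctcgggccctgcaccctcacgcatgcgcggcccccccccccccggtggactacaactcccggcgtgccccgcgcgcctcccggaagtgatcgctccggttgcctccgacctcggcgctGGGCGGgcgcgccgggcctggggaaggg
UPP1: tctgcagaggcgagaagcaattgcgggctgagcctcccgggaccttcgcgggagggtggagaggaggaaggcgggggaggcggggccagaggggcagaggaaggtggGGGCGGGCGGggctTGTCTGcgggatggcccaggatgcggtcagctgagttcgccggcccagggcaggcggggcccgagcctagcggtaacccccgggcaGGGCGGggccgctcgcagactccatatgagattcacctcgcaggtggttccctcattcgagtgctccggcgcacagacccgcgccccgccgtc

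The CDA window held a single match, to the SMAD letters CAGACA, which 16.9% of all 35116 windows hold. The CAD window held a CCAAT match, which 34.6% of all windows hold, and a pair of GC boxes. At least 1 GC box is held by 44.95% of all windows. In UCK1 the match was a GC box within the transcribed bases. UPP1 held GC boxes and a SMAD match in the window shown, and another of its windows, at chr7:48088454-48088753, held an AP-1 match, a motif found in 7.71% of all windows. Elsewhere among the 10 genes, E-boxes were found at DHODH and UCKL1 (7.26% of all windows) and a cAMP response element at UMPS (1.85%), and no member held GTCTAGAC (0.202%). These matches describe letters only.

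Levels per length, as the deposited FPKM, spanned a wide range across the pathway. In the control group CDA, which deaminates cytidine to uridine, was the most abundant at 158 ± 17.9 FPKM (mean ± SD, n = 3), and its mean over 9 libraries lay above 98.3% of the listed genes. CAD, the large enzyme that opens new pyrimidine synthesis, followed at 63.8 ± 3.07 FPKM, and the salvage kinase UCK2 at 33.1 ± 7.04 FPKM. DPYD, which degrades uracil, was lowest at 0.289 ± 0.125 FPKM, from 53 to 138 counts per control library.

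Between them in the control group stood UPP1 at 25.2 ± 5.42, UCK1 at 20.1 ± 3.12, TYMP at 12.6 ± 2.76, UMPS at 9.21 ± 3.13, UCKL1 at 4.11 ± 0.248 and DHODH at 3.03 ± 0.302 FPKM. The neighbours UCK2 and UPP1, UPP1 and UCK1, and TYMP and UMPS overlapped in their control libraries, whereas each other neighbouring pair kept apart. In the TGF-β group the order was unchanged and only UCK1 (17.9 ± 0.295 FPKM) and TYMP (17.7 ± 0.943 FPKM) overlapped. In the TGF-β + uridine group UCK1 (23.4 ± 1.75 FPKM) stood above UPP1 (22.1 ± 2.03 FPKM), with overlapping libraries, and no other place changed.

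**Figure D1:**
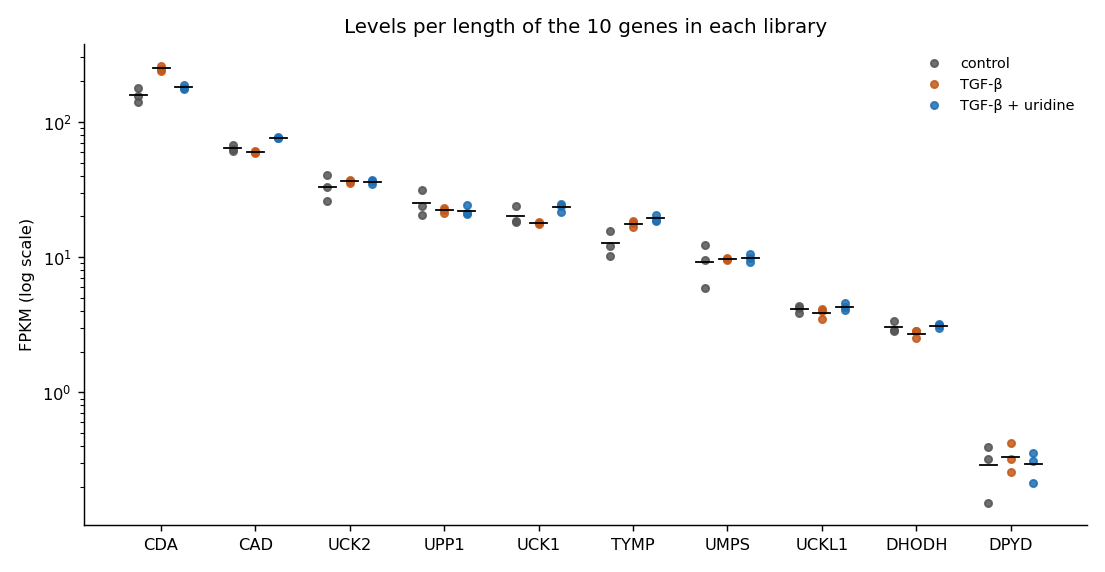
FPKM of the 10 genes in each library on a log scale, with points for the 3 libraries of each group and a bar at the group mean. CDA lies between 141 and 259 FPKM and DPYD between 0.152 and 0.425 FPKM.

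None of the 10 genes passed an adjusted p of 0.05 in any of the 3 comparisons (edgeR quasi-likelihood test, adjusted over all 13384 genes). The comparisons share libraries, since the TGF-β group stands in the first and the second and the control group in the first and the third, so their fold changes are not independent. After TGF-β against control 0 of 10 genes were called, where 3.38% of all tested genes were. With uridine added to TGF-β, 0 of 10 were called against 0.0448% of all genes, and in TGF-β + uridine against control 0 of 10 against 5.33%. Without adjustment, the edgeR p was under 0.05 for 1 gene after TGF-β (CDA), 1 gene with uridine (CDA again) and 0 genes in the third comparison. Over all tested genes these shares were 12.1%, 8.79% and 17.6%. DESeq2 called 0 of the 10 in each comparison, where it called 719, 118 and 1094 genes in all, in that order. The median log2 fold change of the 10 genes was 0.01 after TGF-β, 0.04 with uridine and 0.11 for both against control, beside medians of -0.05, 0.02 and -0.01 over all tested genes.

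Separation of the libraries gave another view. After TGF-β, 2 of 10 genes (CDA and UCK2) had all 3 libraries above the control group, beside 17.7% of all genes that did not overlap in either direction. With uridine, 3 of 10 genes did not overlap with the TGF-β group (UCK1 and CAD higher, CDA lower), beside 25.6% of all genes. In TGF-β + uridine against control 0 of 10 did, beside 19.7%. For 3 libraries against 3 the exact two-sided permutation test cannot give a p below 0.1.

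**Figure D2:**
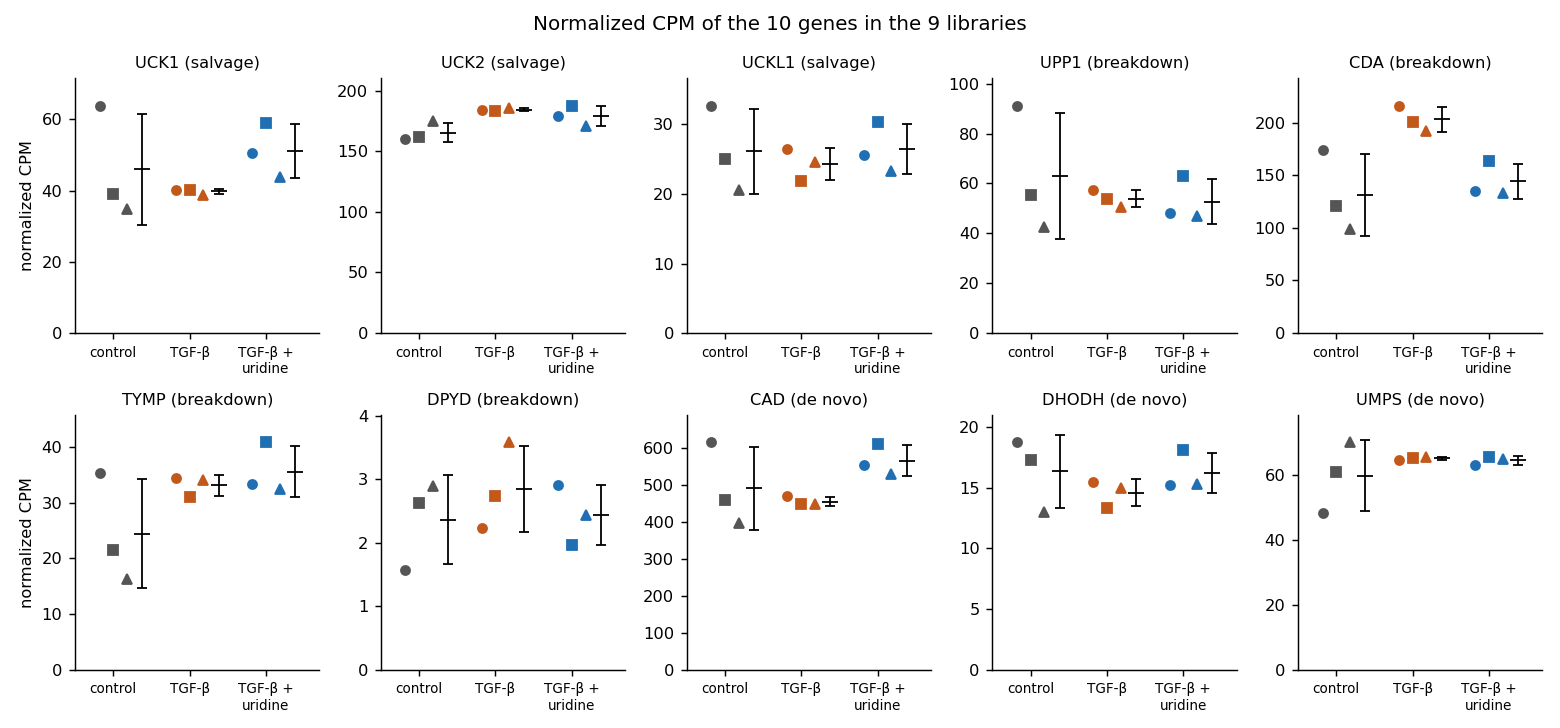
Normalized CPM of each gene in the 9 libraries, with circles, squares and triangles for replicates 1, 2 and 3, and the mean ± SD of each group beside its points. Control 1 is the highest control library for 7 of the genes, and CDA in the TGF-β group (192.5 to 216 normalized CPM) lies above every other library of that gene.

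The salvage kinases were expressed in every library. UCK2, the uridine-cytidine kinase of higher catalytic efficiency, measured 159.9, 162 and 175 normalized CPM in the control group, 184, 183 and 186 in the TGF-β group and 179.5, 188 and 171 in the TGF-β + uridine group. All TGF-β libraries lay above all control libraries, while the uridine libraries overlapped with the TGF-β group. The log2 difference was 0.16 ± 0.08 (SE) after TGF-β, with an edgeR adjusted p of 0.559, and -0.04 ± 0.08 with uridine, with an adjusted p of 0.992 and a 95% interval from -0.23 to 0.15. This was the narrowest interval of the 10 genes in that comparison.

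UCK1, the second kinase of uridine and cytidine, measured 63.8, 39.1 and 34.9 normalized CPM in the control group, 40.1, 40.3 and 38.9 in the TGF-β group and 50.4, 59.0 and 43.8 in the TGF-β + uridine group. The 3 uridine libraries were all above the TGF-β libraries, but within the range of the control group. Uridine against TGF-β gave a log2 difference of 0.36 ± 0.22 (SE, 95% interval -0.13 to 0.85) with an edgeR adjusted p of 0.740. UCK1 overlaps POMT1 on the opposite strand (869 to 1050 counts per library), and since the use of strand in counting is not given in the sources used here, reads of the pair may not be fully told apart; the same holds for UCK2 and TMCO1 (1204 to 3159 counts).

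UCKL1, a kinase-like relative, measured 32.7, 25.1 and 20.6 normalized CPM in the control group, 26.4, 21.9 and 24.6 in the TGF-β group and 25.7, 30.4 and 23.3 with uridine. All groups overlapped, and the highest and the lowest library were controls. Its log2 differences were -0.10 after TGF-β, 0.12 with uridine and 0.02 for both against control, with edgeR adjusted p of 0.982, 0.973 and 0.989. When counts of the 3 kinase genes were summed, the log2 differences were 0.07 after TGF-β, 0.05 with uridine and 0.11 against control, each with SE 0.0950 and adjusted p of 0.971, 0.991 and 0.676.

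Among the genes of breakdown and interconversion, CDA had the largest log2 difference after TGF-β and with uridine, though neither passed the adjusted threshold. Its normalized CPM was 174, 121 and 98.6 in the control group, 216, 201 and 192.5 in the TGF-β group and 136, 164 and 134 in the TGF-β + uridine group. All TGF-β libraries lay above all libraries of both other groups, and the uridine and control groups overlapped. CDA was 1.55-fold higher after TGF-β (log2 difference 0.63 ± 0.19, SE; 95% interval 0.19 to 1.07), and edgeR gave an unadjusted p of 0.00975 (adjusted 0.154). With uridine its log2 difference was -0.49 ± 0.19 (95% interval -0.93 to -0.06), at an unadjusted p of 0.0305 (adjusted 0.499). Against control the TGF-β + uridine group differed by 0.14 ± 0.19 on the log2 scale, with an adjusted p of 0.858. The epithelial marker list, whose sum is nearly all KRT7, moved in the same order: 596 to 803 FPKM in the control group, 1131 to 1179 in the TGF-β group and 833 to 974 in the TGF-β + uridine group. The stellate and fibroblast list summed to 668 to 765, 1108 to 1126 and 1009 to 1022 FPKM. The part of these genes in the CDA values was not tested.

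TYMP, which phosphorolyses thymidine and deoxyuridine, measured 35.4, 21.6 and 16.4 normalized CPM in the control group, 34.4, 31.0 and 34.0 in the TGF-β group and 33.3, 40.8 and 32.5 in the TGF-β + uridine group. Both treated groups lay above control 2 and control 3, whereas control 1 was higher than the TGF-β libraries and within the range of the uridine libraries. The log2 difference was 0.44 ± 0.25 (SE) after TGF-β and 0.54 ± 0.25 for TGF-β + uridine against control, with edgeR adjusted p of 0.606 and 0.310. Leaving out control 1 raised these to 0.80 and 0.89, with adjusted p of 0.00909 and 0.00433. TYMP overlaps SCO2 on the same strand (1935 to 2963 counts), and how shared reads were assigned is not given in the sources used here.

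UPP1, the uridine phosphorylase, measured 91.2, 55.2 and 42.7 normalized CPM in the control group, 57.4, 54.0 and 50.5 in the TGF-β group and 48.0, 63.1 and 46.8 in the TGF-β + uridine group. All groups overlapped, and the widest spread was within the control group. Uridine against TGF-β differed by -0.04 ± 0.25 on the log2 scale, with an edgeR adjusted p of 0.999 and a 95% interval from -0.61 to 0.54, or 0.656-fold to 1.45-fold. After TGF-β the log2 difference was -0.22 ± 0.25, and it turned to 0.14 without control 1. DPYD measured 1.57, 2.62 and 2.89 normalized CPM in the control group, 2.24, 2.74 and 3.58 in the TGF-β group and 2.91, 1.96 and 2.44 with uridine, with all groups overlapping. Its uridine difference of -0.23 had the widest interval of the 10 genes in that comparison, from -0.92 to 0.47.

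The genes of new synthesis were led by CAD. It measured 616, 461 and 397 normalized CPM in the control group, 471, 449 and 448 in the TGF-β group and 556, 613 and 530.4 in the TGF-β + uridine group. The uridine libraries lay above all TGF-β libraries, but control 1 was the highest of the 9. CAD was 1.24-fold higher with uridine (log2 difference 0.31 ± 0.15, SE; 95% interval -0.04 to 0.66), and edgeR gave an unadjusted p of 0.0739 (adjusted 0.633). In FPKM the groups were tighter, at 60.9 to 67.0 in the control group, 59.3 to 60.6 in the TGF-β group and 75.5 to 76.6 in the TGF-β + uridine group, and no group overlapped with another.

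DHODH, the mitochondrial enzyme that oxidises dihydroorotate, measured 18.8, 17.3 and 12.98 normalized CPM in the control group, 15.5, 13.4 and 15.0 in the TGF-β group and 15.3, 18.2 and 15.4 with uridine. UMPS, which converts orotate to UMP, measured 48.3, 60.9 and 70.1 in the control group. For both genes all groups overlapped, and the lowest and the highest library were control libraries. UMPS was even in the treated cells, at 64.8, 65.2 and 65.6 normalized CPM in the TGF-β group and 63.1, 65.8 and 64.99 with uridine, a log2 difference of -0.01 (95% interval -0.31 to 0.28). DHODH differed by 0.15 with uridine (95% interval -0.23 to 0.53). CAD, DHODH and UMPS thus had log2 differences with uridine of 0.31, 0.15 and -0.01, none of which passed the test.

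**Figure D3:**
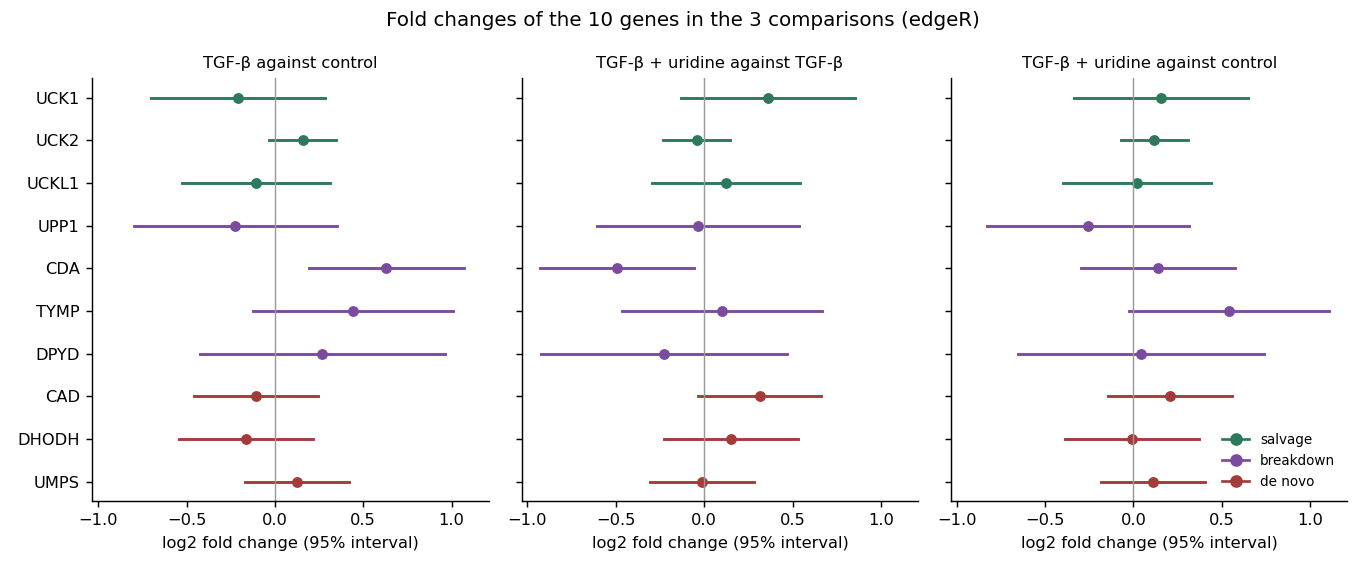
Log2 fold changes of the 10 genes in the 3 comparisons (x axis), as points with 95% intervals from the edgeR fit, coloured by role. The interval of CDA leaves out 0 after TGF-β (0.19 to 1.07) and with uridine (-0.93 to -0.06), while every other interval includes 0; intervals are not adjusted for the number of genes.

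In FPKM, which the deposited table scales by library total without the TMM factor, more genes kept apart. With uridine 5 of 10 genes did not overlap with the TGF-β group (UCK1, CAD, DHODH and TYMP higher, CDA lower), beside 29.2% of all tested genes. After TGF-β 4 of 10 did not overlap with control (CDA and TYMP higher, UCK1 and CAD lower), beside 20.4%, and in TGF-β + uridine against control 2 of 10 (CAD and TYMP higher), beside 25%. TYMP in FPKM was 15.6, 12.01 and 10.2 in the control group, 17.96, 16.6 and 18.4 in the TGF-β group and 18.6, 20.4 and 18.9 with uridine. In limma on log2(FPKM + 1), with 9909 genes tested and DPYD below its filter, CAD (0.34, adjusted p 0.0109) and CDA (-0.46, adjusted p 0.0248) were called with uridine, beside 3.89% of all genes. CDA alone was called after TGF-β (0.66, adjusted p 0.00171), beside 8.1%, and CAD (0.25, adjusted p 0.00832) and TYMP (0.60, adjusted p 0.0212) for TGF-β + uridine against control, beside 14.3%. These differences are on the log2(FPKM + 1) scale, which understates changes of low genes.

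Libraries differed in how counts related to GC content. The slope of log2 CPM on the GC fraction of genes was 13.99 in control 1, 7.48 in control 2 and 4.06 in control 3, against 7.89 to 8.77 in the TGF-β group and 5.48 to 10.54 in the TGF-β + uridine group. Control 1 held 16.5% mitochondrial counts and control 3 11.1%. The ratio of normalized CPM in control 1 to that in control 3 was 0.542 for DPYD (40.7% GC) and 0.689 for UMPS (48.1% GC), and 1.83 for UCK1 (58.0% GC) and 2.16 for TYMP (60.3% GC). UPP1, at 48.5% GC, stood apart from that order with a ratio of 2.14, and UCK2, at 49.7% GC, had 0.915. The part of base composition in the spread of the control group was not tested. The alternative that follows only adds the slope as a covariate.

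**Figure D4:**
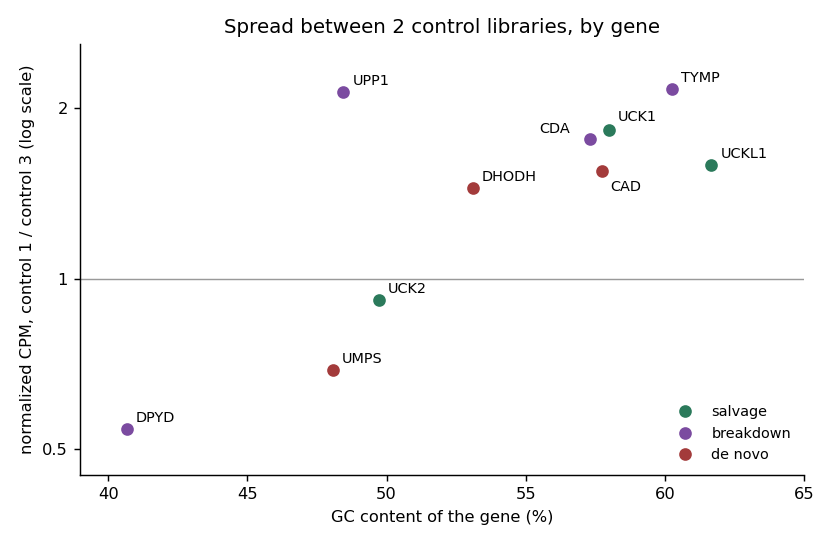
Ratio of normalized CPM between control 1 and control 3 (log scale) against the GC content of each of the 10 genes in percent. DPYD lies lowest at 0.542, and UPP1 and TYMP lie highest at 2.14 and 2.16 despite 48.5% and 60.3% GC.

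With the GC slope of each library as a covariate in edgeR, more of the 10 genes were called. That slope was computed from the same counts that were then tested, which limits how the adjusted p below can be read. With uridine 3 of 10 genes were called, beside 19.2% of all genes: CDA (-0.47, adjusted p 5.87e-05), CAD (0.33, adjusted p 8.65e-05) and UCK1 (0.38, adjusted p 0.000690). After TGF-β 3 of 10 were called, beside 20.3%: CDA (0.69, adjusted p 2.96e-07), TYMP (0.54, adjusted p 0.000128) and UCK2 (0.16, adjusted p 0.0330). For TGF-β + uridine against control 4 of 10 were called, beside 31.2%: TYMP (0.67), CAD (0.26), CDA (0.22) and UCK1 (0.25), with adjusted p from 1.44e-05 to 0.00526. UPP1 was not called in any comparison under the covariate, at log2 differences of -0.01 with uridine and -0.12 after TGF-β, with adjusted p of 0.935 and 0.184.

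Control 1 decided several of the values. Without it, CDA was called with uridine (-0.51, edgeR adjusted p 0.0474), beside 1.98% of all genes. CDA (0.89, adjusted p 0.00195) and TYMP were called after TGF-β, beside 7.93%. UCK1 (0.45, adjusted p 0.0382), CAD (0.38, adjusted p 0.0262) and TYMP were called for TGF-β + uridine against control, beside 17.6%. Leaving out any of the other 8 libraries gave 0 calls among the 10 genes in every comparison. CDA was higher after TGF-β and lower with uridine in the edgeR result and under all 23 alternatives, from 0.46 to 0.89 and from -0.60 to -0.44 on the log2 scale. The alternatives draw on the same libraries, and those that only tighten the threshold repeat the main fold changes, so they are not independent.

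Ratios of FPKM within a library do not depend on how libraries are scaled, and were set up after the values had been seen, so they are given without a test. CDA per CAD was 2.31 to 2.64 in the control group, 4.004 to 4.28 in the TGF-β group and 2.27 to 2.49 in the TGF-β + uridine group. The TGF-β libraries lay above all others, and the remaining groups overlapped. Of the 9 ratios between CDA and another member, 5 did not overlap between the TGF-β and control groups, beside 48.6% of such ratios over all tested genes. With uridine 8 of 9 did not overlap with the TGF-β group, beside 55.3%, and for TGF-β + uridine against control 2 of 9, beside 26%.

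TYMP per UPP1 was even in the control group although both genes spread about as widely there. The ratio was 0.496 to 0.504 in the control group, 0.742 to 0.870 in the TGF-β group and 0.837 to 0.897 in the TGF-β + uridine group. Every treated library lay above every control library, and the treated groups overlapped with each other. Of the 45 pairs of the 10 genes, 10 had ratios that did not overlap between the TGF-β and control groups. Between TGF-β + uridine and control 11 of 45 did not, and between TGF-β + uridine and TGF-β 19 of 45 did not. The share over all pairs of tested genes was not computed, so these counts have no background beside them. TYMP per UPP1 had the smallest coefficient of variation in the control group, 0.835%, of all 45 pairs of the 10 genes.

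**Figure D5:**
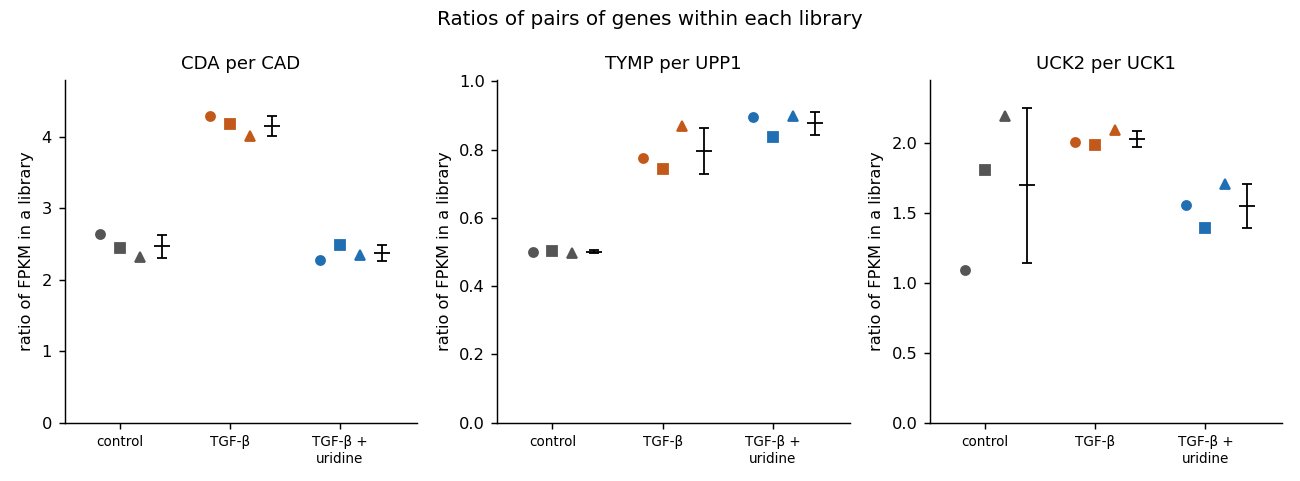
Ratios of FPKM of CDA to CAD, TYMP to UPP1 and UCK2 to UCK1 within each library, with circles, squares and triangles for replicates 1, 2 and 3 and the mean ± SD of each group beside its points. CDA per CAD lies between 4.004 and 4.28 in the TGF-β group and between 2.27 and 2.64 in the others.

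Beyond the 10 genes, 44 further genes of pyrimidine handling were listed by role, of which 42 are in the table and 37 were tested. Their median log2 fold change was -0.08 after TGF-β, -0.04 with uridine and -0.03 for both against control. In edgeR 2 of 37 rose and 0 fell after TGF-β, beside 3.38% of all tested genes called in either direction. With uridine 0 of 37 were called, beside 0.0448%, and for TGF-β + uridine against control 1 rose and 1 fell, beside 5.33%. Unadjusted p was under 0.05 for 4 of 37 in each comparison, beside 12.1%, 8.79% and 17.6% of all genes in that order. DESeq2 called 2, 0 and 2 of these genes, beside 719, 118 and 1094 genes in all. Limma on FPKM called 3, 1 and 5, beside 8.1%, 3.89% and 14.3% of all genes it tested. Its filter left out genes with a mean under 0.5 FPKM, such as UPRT at 0.487, so it did not test all 37. In normalized CPM, 6 of 37 lay wholly above control after TGF-β and 0 below, beside 17.7% of all genes that did not overlap. With uridine 1 lay above the TGF-β group and 7 below, beside 25.6%. For TGF-β + uridine against control 2 lay above and 1 below, beside 19.7%. Each of these shares pools both directions, and shares by direction were not computed. The TGF-β and the uridine comparison both use the TGF-β group, so opposite directions in them are not independent. CTPS1, the CTP synthase, is among 11 genes that carry UMP on to UDP, UTP and CTP. It measured 183, 172 and 158 normalized CPM in the control group and 261.5, 258 and 268 in the TGF-β group. With uridine it measured 194, 226 and 197, and the groups did not overlap. It rose after TGF-β by 0.62 on the log2 scale (adjusted p 0.00916, and 0.0567 to 0.0620 without control 2 or any TGF-β library), and its difference with uridine was -0.35 (adjusted p 0.331). For both against control it was 0.27 (adjusted p 0.193), and 0.30 (0.0462) without control 1. Of 23 alternatives, 2 called CTPS1 with uridine, both with the GC covariate, and 5 called it against control. NME1, a nucleoside diphosphate kinase, was the most abundant of that list at a mean of 130 FPKM over the 9 libraries.

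Of 8 nucleotidases that release nucleosides, NT5C was the most abundant at a mean of 54.9 FPKM. NT5E (CD73), which dephosphorylates nucleoside monophosphates outside the cell, rose after TGF-β. It measured 1.72, 2.62 and 2.92 normalized CPM in the control group, 5.96, 5.93 and 7.72 in the TGF-β group and 5.98, 4.23 and 5.33 with uridine. Every treated library was above every control library, and the treated groups overlapped. The log2 difference was 1.43 after TGF-β (adjusted p 0.0170) and 1.10 for TGF-β + uridine against control (adjusted p 0.0436). The call after TGF-β was lost without control 2 or any TGF-β library (adjusted p 0.0589 to 0.0911), and the other without control 2 or any treated library (0.0669 to 0.171). With the other alternatives included, 7 and 14 of 23 lost these calls.

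Of 7 nucleoside transporters, SLC29A1 (ENT1) was the most abundant at a mean of 103 FPKM, and SLC28A2 had at most 1 count. SLC29A3 (ENT3), an intracellular transporter, measured 16.0, 11.8 and 10.53 normalized CPM in the control group, 11.3, 10.2 and 11.2 in the TGF-β group and 7.46, 7.42 and 7.45 with uridine. The uridine libraries lay below every other library. It fell by 0.78 on the log2 scale for TGF-β + uridine against control (adjusted p 0.0411, and 0.0875 to 0.156 without control 2 or any treated library, with 11 of 23 alternatives losing the call), while uridine against TGF-β gave -0.55 (adjusted p 0.398). Of 23 alternatives, 5 called SLC29A3 with uridine: limma at both pseudocounts (adjusted p 0.0399 and 0.0373), the GC covariate without and with the replicate block (0.00385 and 0.00914), and edgeR without control 1 (0.0498). None of the 11 deoxypyrimidine genes, led by TK1 at a mean of 148 FPKM, and none of the 4 PRPP supply genes, led by PRPS1 at 79.7 FPKM, passed the test in a comparison; their lowest adjusted p were 0.285 and 0.327. DPYS and UPB1, which act after DPYD, had at most 1 count in any library and were not tested, and UPP2 was not analysed here.

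Likeness across the 9 libraries was measured as the root mean square difference of log2 CPM, each gene centred on its mean, over the 9840 genes whose log2 CPM averaged 1 or more. RPL8, CYBA and ATP5F1D were nearest to UPP1, at 0.0367, 0.0368 and 0.0404, where the median gene was at 0.360. Nearest to TYMP were POLRMT, RAB32 and HOMER3 at 0.0533, 0.0641 and 0.0673 (median 0.441), and nearest to DPYD were ZNF264, TTPAL and PARD3 at 0.0686, 0.115 and 0.122 (median 0.438). These libraries share the wide spread of the control group, which enters every such value.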

How the data were processed

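RNA of LX-2 cells was analysed in 9 libraries, 3 per group, with groups taken from the sample labels. RNA was extracted with TRIzol, libraries were made with the VAHTS Universal V6 kit, and a commercial provider sequenced them. The authors deposited raw counts per gene and FPKM values; the ratio of count to FPKM gave 1 fixed length per gene in all libraries. The submitters' processing notes name fastp, HISAT2, HTSeq, R 3.2.0 and GRCh38.p13, with no role or order. The annotation and the strand setting are not given in the sources used here. Depth was 40539751 to 41467124 counts, so 3 counts equal at most 0.0740 CPM.

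Counts were tested in R 4.3.3 with the quasi-likelihood test of edgeR 4.0.16 after filterByExpr and TMM scaling, on all 3 groups in 1 model, two-sided, with Benjamini-Hochberg adjustment over 13384 genes. The common biological coefficient of variation was 0.289. Exact permutation tests used scipy 1.17.1. Alternatives were DESeq2 1.42.0, limma 3.58.1 with trend on log2(FPKM + 1) or log2(FPKM + 0.1), other scaling, filters and thresholds, a replicate block, a GC slope covariate and leaving out each library. GC content was that of the longest transcript of each gene symbol in GENCODE v29 on GRCh38 (12319 of the tested genes). Promoter windows came from RefSeq on GRCh38.p14. Scripts were tested on simulated data. Members, lists and the rule for named genes (every member, every called gene of the lists, the most abundant gene of each list, and the 3 genes most like UPP1 and the 2 members with the widest range) were chosen with earlier results of these data known. Within-library ratios were added after the values had been seen.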

Additional observations from a re-analysis of the deposited data

How the results depend on the processing

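Of 684 fold changes of the 10 genes under 23 alternatives, 610 kept their direction and their side of the threshold and 41 gained a call. Another 33 changed sign, 23 of these on leaving out a library. No call could be lost, since 0 of the 10 genes were called in the main result. The alternatives with a stricter threshold (fold 1.5, or adjusted p of 0.01) reused the main fit and could only keep its result. DPYD had values under 21 alternatives, since its FPKM was below the filter in the limma fits at both pseudocounts, which tested the other 9 genes. With uridine, 1 of the 10 genes was called when only the 2 groups were modelled (CDA), 2 by limma at either pseudocount and without the filter, and 3 with the GC covariate, alone or with the replicate block. After TGF-β these counts were 0, 1, and 3 with the GC covariate or 2 with the block as well, and for both against control 0, 2 and 4. Leaving out 1 library gave 0 to 1, 0 to 2 and 0 to 3, with calls only without control 1. Other alternatives called 0 of the 10, and the cause was not tested.

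Among all tested genes, 6 were called with uridine, 118 by DESeq2, 10 with upper-quartile scaling, 317 with only the 2 groups, 385, 378 and 295 by limma on log2(FPKM + 1), on log2(FPKM + 0.1) and unfiltered, 2568 with the GC covariate, 0 at an adjusted p of 0.01, and 0 to 271 without 1 library. After TGF-β the 453 calls became 719 (DESeq2), 229 (2 groups), 803, 793 and 796 (limma), 2715 (GC covariate), 238 (adjusted p 0.01) and 218 to 1085 (without 1 library). For both against control the 714 calls became 1094, 222, 1421, 1402, 1364, 4171, 294 and 304 to 2413. Replicate numbers gave correlations of -0.210 to 0.558 between same-numbered libraries, so they were not taken as pairs; with replicate number as a block the counts were 0 with uridine, 314 after TGF-β and 437 against control, and with the GC covariate as well 2077, 2346 and 3773.

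UMPS with uridine changed sign to 0.019, 0.021 and 0.019 in the limma fits, and the summed kinases were at 0.048 against -0.04 for UCK2 alone. For both against control UCKL1 was -0.0014 under RLE scaling, and DHODH was 0.0017 with the replicate block, 0.024, 0.032 and 0.024 in the limma fits, 0.031 with the GC covariate and 0.033 with block and covariate. Without 1 library, log2 differences ranged with uridine over -0.19 to 0.042 for UPP1, -0.029 to 0.0036 for UMPS and -0.011 to 0.16 for TYMP. After TGF-β they ranged over -0.44 to 0.14 for UPP1, -0.37 to 0.10 for UCK1, -0.25 to 0.086 for UCKL1, -0.013 to 0.25 for UMPS and -0.24 to 0.083 for CAD. Against control they ranged over -0.48 to 0.086 for UPP1, -0.011 to 0.45 for UCK1, -0.13 to 0.19 for UCKL1, -0.041 to 0.24 for UMPS, -0.15 to 0.082 for DHODH, -0.033 to 0.38 for CDA and -0.20 to 0.21 for DPYD.

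With 3 libraries a group and a biological coefficient of variation of 0.289, 95% intervals included 0 for every gene but CDA. For uridine against TGF-β these ran from -0.23 to 0.15 for UCK2 and from -0.92 to 0.47 for DPYD, whose counts were lowest. The spread was estimated over all 3 groups, so these intervals also carry that of the control group, which is not in that comparison. For CDA the coefficient of variation of normalized CPM was 29.6% in the control group, 5.93% in the TGF-β group and 11.7% in the TGF-β + uridine group.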

Other observations

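Ratios within libraries among the other members were also set up after the values had been seen and carry no test. UCK2 per UCK1, the ratio of the main salvage kinases in FPKM, was 1.99 to 2.09 in the TGF-β group and 1.39 to 1.71 in the TGF-β + uridine group, and the libraries of these groups did not overlap. In the control group it ran from 1.10 in control 1 to 2.19 in control 3, across the range of both. CDA per TYMP was 11.3 to 13.8 in the control group, 12.99 to 14.9 in the TGF-β group and 9.21 to 9.44 in the TGF-β + uridine group, so that the uridine libraries lay below all others. Over all tested genes, 55.3% of ratios to CDA did not overlap between TGF-β + uridine and TGF-β, and 26% between TGF-β + uridine and control.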
